A study of Mus musculus with 6 samples.

Results

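The immune checkpoint receptors and their ligands, 10 genes in all, were examined in tumour-infiltrating and cancer cells, namely Pdcd1, Ctla4, Lag3, Havcr2 and Tigit on the receptor side and Cd274, Pdcd1lg2, Cd80, Cd86 and Pvr on the ligand side. All 10 members were found by symbol among the 32285 genes listed in the count files. KPC cells, pancreatic ductal adenocarcinoma cells isolated from KPC mice, had been placed in the pancreas of C57BL/6 hosts and the resulting tumours digested. The implanted cells carried an empty vector (OE-Vector) or an Mlkl overexpression construct (OE-MLKL). Mlkl encodes the executioner pseudokinase of necroptosis. The labels gave neither the age of the hosts nor a cell type other than cancer cells, although whole tumours were digested. Of 6 labelled samples, 3 per group, the count matrices of OE-Vector 1 and of OE-MLKL 1, 2 and 3 were analysed, and those of the other OE-Vector samples were not analysed here. The OE-Vector group is therefore 1 library, and a difference between the groups cannot be told apart from a difference between that tumour and the others.

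Checkpoint receptors sit on T cells and damp signalling when bound by ligands on neighbouring cells. PD-1 (Pdcd1) binds PD-L1 (Cd274) and PD-L2 (Pdcd1lg2). CTLA-4 (Ctla4) competes with the costimulatory receptor CD28 for CD80 and CD86 on antigen-presenting cells and is a constitutive product of Foxp3+ regulatory T cells. LAG-3 (Lag3) binds MHC class II, TIM-3 (Havcr2) is found on T cells and on myeloid cells alike, and TIGIT (Tigit) binds the poliovirus receptor CD155 (Pvr), which epithelial tumours often carry.

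To show the regulatory sequence next to the genes whose levels separated cell types most clearly, the RefSeq promoter windows (GRCm38.p6, 250 bases before to 50 bases after the annotated start) were read. They were found for 7 of the 10 members, and Cd86, Lag3 and Pvr had none. The motifs searched, on both strands, were the STAT site TTCNNNGAA, the interferon-response element (GAAA, any 2 bases, GAAA), the NFAT core TGGAAA, the AP-1 site TGANTCA and the RUNX site TGTGGT, which among all 32851 promoters of the same length were present in 8.30%, 3.44%, 21.4%, 7.81% and 16.8%. The letters of TGGAAA can overlap those of the interferon-response element. The first 2 motifs were found in 0 of the 7 windows. TGGAAA was found in Ctla4, TGANTCA in Cd80 and Havcr2, and TGTGGT in Pdcd1lg2, Havcr2 and Tigit, while Pdcd1 and Cd274 had no match. The windows of Ctla4 (chr1:60908775-60909074), Cd80 (chr16:38458683-38458982) and Pdcd1lg2 (chr19:29410669-29410968), all on the plus strand, are given 5′ to 3′ because, of the genes with a window, Ctla4 gave the clearest contrast among T cells, Cd80 the clearest between neutrophils and macrophages (that of Cd86, which had no window, was larger) and Pdcd1lg2 the largest fitted difference between the groups. The RefSeq starts of Ctla4 and Cd80 lie inside the GENCODE spans for these genes, downstream of the GENCODE starts. Capitals mark the motif match on either strand, TTTCCA in Ctla4, TGATTCA in Cd80 and ACCACA in Pdcd1lg2, and a match describes letters and not a bound site.
Ctla4: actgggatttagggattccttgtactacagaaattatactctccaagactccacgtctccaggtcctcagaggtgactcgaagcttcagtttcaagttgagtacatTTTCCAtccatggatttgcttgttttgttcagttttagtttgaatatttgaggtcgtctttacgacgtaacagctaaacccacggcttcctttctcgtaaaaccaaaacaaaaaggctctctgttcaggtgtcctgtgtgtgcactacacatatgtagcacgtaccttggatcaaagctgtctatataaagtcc
Cd80: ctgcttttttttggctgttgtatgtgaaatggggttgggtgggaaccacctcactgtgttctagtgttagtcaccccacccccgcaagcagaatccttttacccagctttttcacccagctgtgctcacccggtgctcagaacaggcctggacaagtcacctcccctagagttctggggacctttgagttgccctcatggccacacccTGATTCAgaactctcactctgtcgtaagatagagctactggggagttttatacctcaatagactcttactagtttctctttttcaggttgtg
Pdcd1lg2: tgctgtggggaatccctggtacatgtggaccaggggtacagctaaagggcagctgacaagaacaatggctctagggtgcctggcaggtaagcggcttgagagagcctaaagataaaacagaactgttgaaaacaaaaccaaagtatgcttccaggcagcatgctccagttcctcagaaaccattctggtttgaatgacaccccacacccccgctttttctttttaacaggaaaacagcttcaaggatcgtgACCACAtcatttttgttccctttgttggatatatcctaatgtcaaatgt

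A cell was a barcode with at least 500 UMIs (unique molecular identifiers, each a captured transcript), more than 200 genes and under 10% mitochondrial UMIs, which gave 74546 cells, 15382 to 23063 per library, from 150591289 to 169978362 UMIs per library. Cells were gated on detected marker genes, none of them a checkpoint gene, and 60994 cells fell into 7 gates: 1677 CD8 T cells, 477 CD4 T cells, 189 Foxp3 T cells, 11043 macrophages, 313 dendritic cells, 29300 neutrophils and 17995 cancer cells. The smallest cell groups were the Foxp3 T cells of OE-MLKL 1, with 23 cells, and the dendritic cells of OE-MLKL 1, with 49. Of the markers left out of the gates, only some are given here and none for CD8 T cells, so these values are no full check of the gates. Ikzf2 was at 1292 to 2100 CPM (UMIs per 1000000 UMIs of the gate) in Foxp3 T cells and at 120 to 430 CPM in CD4 T cells, Mertk at 99.0 to 204 CPM in macrophages and at most 6.60 CPM elsewhere, Batf3 at 170 to 286 CPM in dendritic cells, and Trem1 at 426 to 737 CPM in neutrophils. In cancer cells the epithelial markers left out of the gates were low, with Cldn4 at 0.525 to 4.63 CPM and Msln at 9.79 to 68.4 CPM. Krt18, at 390 to 762 CPM, was a gate marker and is no check of the gate. Mlkl itself was at 15.6 CPM in cancer cells of the library labelled OE-Vector and at 8.52, 13.1 and 20.1 CPM in the libraries labelled OE-MLKL 1, 2 and 3, with a log2 fold change of -0.33 ± 0.40 (edgeR adjusted p = 0.993), which does not separate the labels. Libraries also differed within OE-MLKL. Malat1, a nuclear RNA, was at 9817, 5902, 5405 and 16572 CPM in macrophages of OE-Vector 1 and OE-MLKL 1, 2 and 3, and OE-Vector 1 and OE-MLKL 3 had the highest Malat1 in 6 of 7 gates, the exception being Foxp3 T cells. The comparison of the groups within each gate was also made without OE-MLKL 3, but the joint fits of 2 gates given below were not. The part of this resemblance in the results was not tested. Of the cell barcodes, 605 occurred in more than 1 library, and these were not removed.

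**Figure D1:**
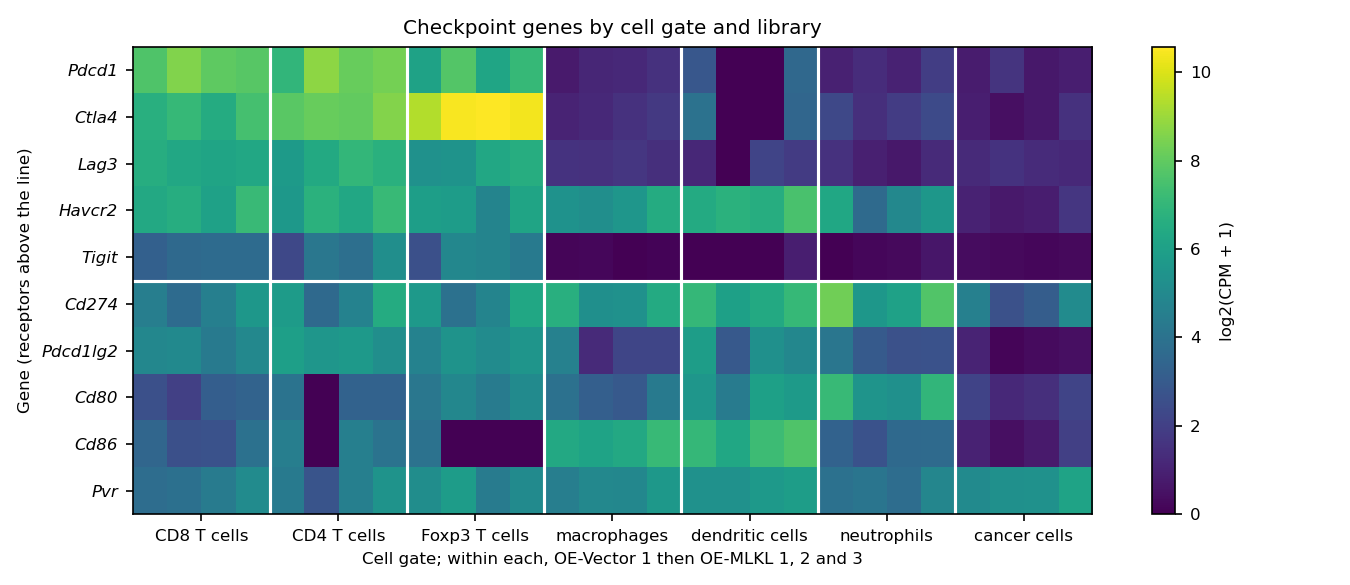
Level of the 10 checkpoint genes, as log2(CPM + 1) in colour, in each of the 7 cell gates (columns, with OE-Vector 1 and OE-MLKL 1, 2 and 3 from left to right) and each gene (rows). Pdcd1, Ctla4, Lag3 and Tigit are bright only in the 3 T cell gates, with Ctla4 in Foxp3 T cells at 654 to 1522 CPM, while Havcr2 and the ligands extend into myeloid cells.

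Averaged over the 4 libraries, Pdcd1, Ctla4, Lag3 and Tigit were highest in a T cell gate and lay at most at 14.9 CPM in any library of the 4 other gates. Havcr2 was highest in dendritic cells. Among ligands, Cd274 and Cd80 were highest in neutrophils, Cd86 and Pvr in dendritic cells and Pdcd1lg2 in CD4 T cells. Each cell was then thinned to 500 UMIs to compare shares at the same depth. The gate with the largest share of cells holding a UMI was the gate with the highest CPM for 9 of 10 genes. The exception was Tigit, which had at most 36.3 CPM in any gate. At 1000 UMIs the leading gate was dendritic cells for Cd274 and Foxp3 T cells for Tigit. Gating itself needed detected markers, and the part of depth in which cells entered a gate was not tested.

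Ctla4 (ENSMUSG00000026011, chr1:60887000-60915832, plus strand) gave the clearest order of all members. Its level in Foxp3 T cells was 654 CPM in OE-Vector 1 and 1408, 1522 and 1319 CPM in OE-MLKL 1, 2 and 3. In CD4 T cells it was 230, 272, 258 and 390 CPM, and in CD8 T cells 99.96, 134, 90.5 and 176 CPM in the same order of libraries. The ranges of the 3 gates did not overlap, and the order Foxp3, CD4, CD8 held in each of the 4 libraries. With the library as a block, Ctla4 was higher in Foxp3 than in CD4 T cells by 1.97 ± 0.17 on the log2 scale (SE, edgeR adjusted p = 4.5e-07), and lower in CD8 than in CD4 T cells by a log2 difference of -1.16 ± 0.13 (edgeR adjusted p = 1.1e-05). Against Foxp3 T cells the log2 difference of CD8 T cells was -3.13 ± 0.17 (edgeR adjusted p = 2.2e-14). Between 86.3% and 95.7% of Foxp3 T cells held a Ctla4 UMI, against 0.527% to 1.56% of macrophages. Macrophages were deeper, with median depths of 4310.5 to 8390.5 UMIs per cell against 2341 to 3690.5.

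Pdcd1 (ENSMUSG00000026285, chr1:94038305-94052553, minus strand) was present in all T cell gates and lowest in Foxp3 T cells. CD8 T cells had 200 CPM in OE-Vector 1 and 382, 247 and 226 CPM in OE-MLKL 1, 2 and 3. CD4 T cells had 122, 443, 274 and 327 CPM, and Foxp3 T cells 67.4, 213, 72.8 and 134 CPM. Foxp3 T cells were the lowest of the 3 gates in every library, while CD8 and CD4 T cells overlapped and changed places between OE-Vector 1 and the other libraries. Pdcd1 was lower in Foxp3 than in CD4 T cells by a log2 difference of -1.28 ± 0.21 (edgeR adjusted p = 0.00062, and 0.093 without the library block) and higher in CD8 than in Foxp3 T cells by 1.34 ± 0.21 (edgeR adjusted p = 2.5e-05). The CD8 and CD4 gates differed by 0.04 ± 0.16 (edgeR adjusted p = 0.938). A Pdcd1 UMI was found in 42.6% to 74.4% of CD8 T cells and in 0.421% to 1.25% of macrophages.

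Lag3 (ENSMUSG00000030124, chr6:124904361-124911705, minus strand) did not separate the T cell gates. It was 95.9 CPM in CD8 T cells of OE-Vector 1 and 79.0, 71.5 and 80.4 CPM in OE-MLKL 1, 2 and 3, 53.2, 85.1, 127 and 103 CPM in CD4 T cells, and 39.9, 42.7, 79.4 and 96.0 CPM in Foxp3 T cells. The 3 ranges overlapped and no pair of gates passed the test, with a log2 difference of 0.53 ± 0.29 between CD8 and Foxp3 T cells (edgeR adjusted p = 0.353). Outside T cells it stayed between 0 and 3.55 CPM.

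Havcr2 (ENSMUSG00000020399, chr11:46454935-46481255, plus strand) was the one receptor shared by lymphoid and myeloid cells. Dendritic cells had 88.2 CPM in OE-Vector 1 and 107, 95.9 and 183 CPM in OE-MLKL 1, 2 and 3, CD8 T cells 81.5, 94.8, 65.6 and 141 CPM, and macrophages 41.3, 36.5, 45.7 and 88.7 CPM. Dendritic cells exceeded macrophages in each library, by 1.27 ± 0.16 on the log2 scale (edgeR adjusted p = 4.2e-07). Cancer cells had 0.654 to 2.22 CPM, a log2 difference of -5.81 ± 0.12 from macrophages (edgeR adjusted p = 1.3e-06). CD8 T cells passed the test against Foxp3 T cells, with 0.88 ± 0.27 (edgeR adjusted p = 0.0368), but this call was kept in only 6 of 13 alternative settings. Tigit (ENSMUSG00000071552, chr16:43648867-43664146, minus strand) was sparse, with 8.43 to 12 CPM in CD8 T cells, 3.87 to 36.3 CPM in CD4 T cells and 4.99 to 28.4 CPM in Foxp3 T cells, and its order among these gates was not resolved at this depth, since the Foxp3 values rest on 2 to 4 UMIs per library.

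**Figure D2:**
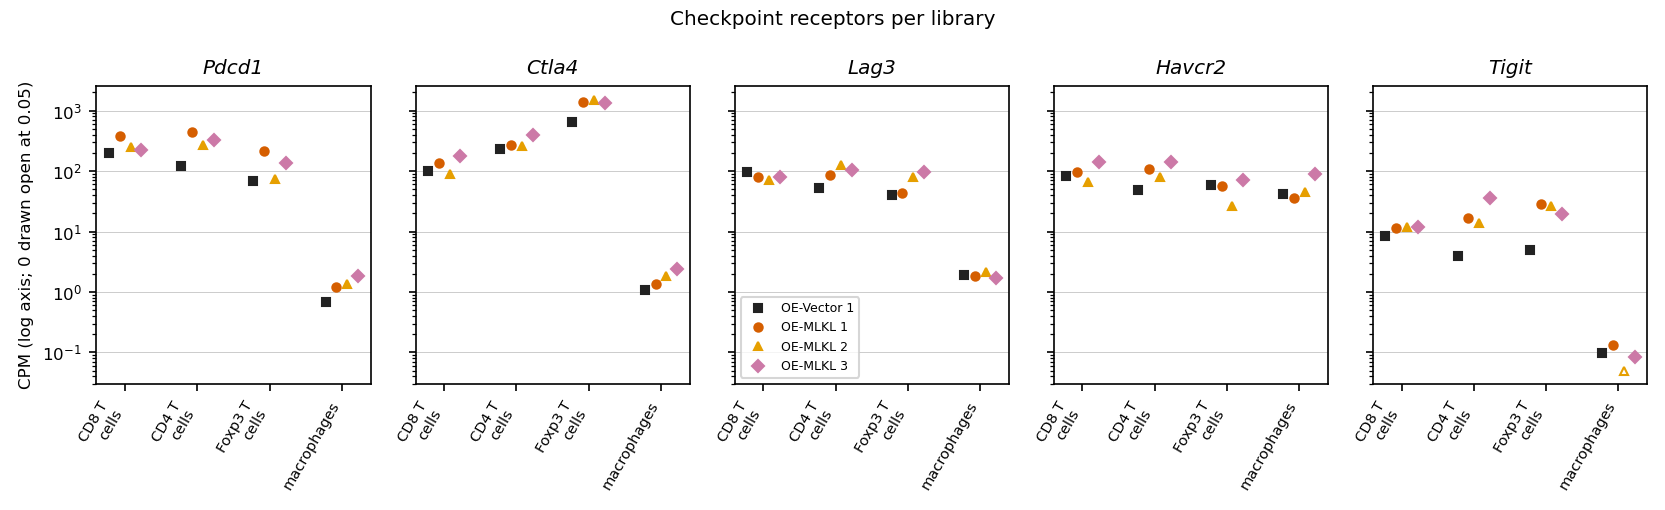
CPM (log axis) of the 5 receptors in CD8, CD4 and Foxp3 T cells and macrophages, with 1 point per library. Ctla4 climbs from CD8 to CD4 to Foxp3 T cells without overlap, Pdcd1 is lowest in Foxp3 T cells, and of the 5 receptors Havcr2 alone reaches T cell levels in macrophages (36.5 to 88.7 CPM).

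Over the 10 members, 2 of 6 tested were called between Foxp3 and CD4 T cells, against 5.81% of all genes tested. Between CD8 and CD4 T cells 3 of 10 were called (7.48% of all genes), and between CD8 and Foxp3 T cells 4 of 9 (8.47%). The calls not yet described were those of Cd274 and Pdcd1lg2, lower in CD8 than in CD4 T cells, and of Cd80, lower in CD8 than in Foxp3 T cells. Each was lost in 4 or 5 of 12 or 13 alternative settings. The log2 differences were -0.83 ± 0.24 for Cd274 (edgeR adjusted p = 0.0446), -0.86 ± 0.23 for Pdcd1lg2 (edgeR adjusted p = 0.025) and -1.74 ± 0.52 for Cd80 (edgeR adjusted p = 0.0286). The Cd80 call rests on 17 Cd80 UMIs in Foxp3 T cells and 57 in CD8 T cells over all libraries. The median log2 difference of the tested members was -0.55, -0.54 and -0.44 in the 3 comparisons, with medians over all genes of -0.01, 0.00 and 0.05.

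Receptors were also counted cell by cell. At least 1 of the 5 receptors was detected in 63.7% of OE-Vector CD8 T cells (59.5 to 67.8, the 95% interval by the exact binomial method) and in 88.9%, 70.6% and 73.4% of those of OE-MLKL 1, 2 and 3. At least 2 were detected in 40.2% of OE-Vector CD8 T cells, the lowest share, and in 65.8%, 45.5% and 52.0% of those of OE-MLKL 1, 2 and 3. At least 3 receptors were detected in 27.7%, 28.1%, 17.2% and 31.2% of CD8 T cells, so that the OE-Vector library lay inside the OE-MLKL range. In CD4 T cells the share with 3 or more was 9.74% in OE-Vector 1 (interval 5.97 to 14.8). In the OE-MLKL libraries it was 20.4%, 20.2% and 29.3%. The OE-Vector cells were deeper, with a median of 4000 UMIs against 2249 to 2796, and the part of depth was not tested. In Foxp3 T cells the order changed with the step. At least 1 receptor was detected in 89.4% of OE-Vector cells and in 95.7%, 90.2% and 93.9% of those of OE-MLKL 1, 2 and 3, and at least 2 in 47.0% against 56.5%, 35.3% and 44.9%. For 3 or more the shares were 21.2% (14 cells, interval 12.1 to 33.0) against 13.0%, 9.80% and 16.3% (3, 5 and 8 cells), and here too the OE-Vector cells were deeper, with a median of 3690.5 UMIs against 2341 to 2668. These intervals cover counting error within 1 tumour. With 1 library against 3, an exact permutation test cannot go below p = 0.25, and none was made.

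**Figure D3:**
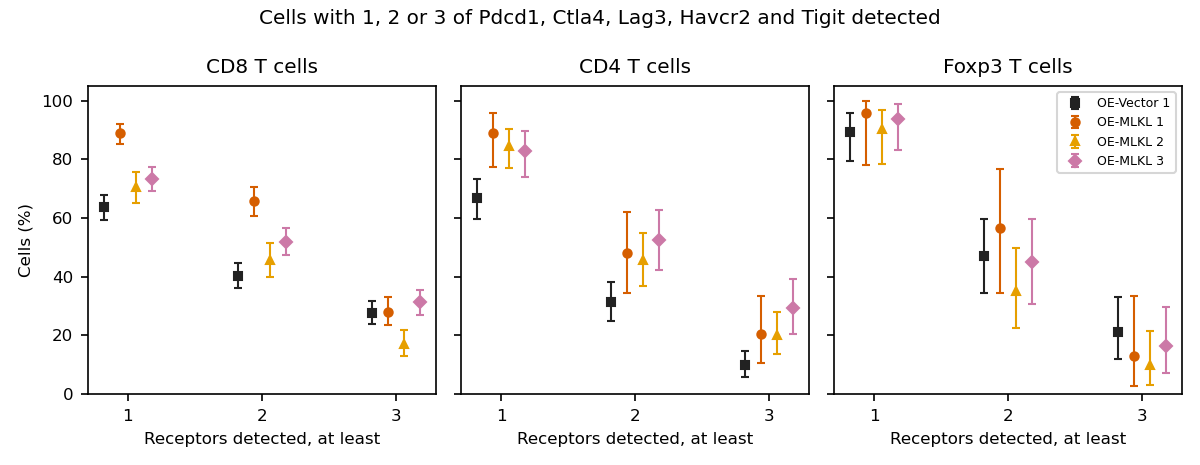
Share of CD8, CD4 and Foxp3 T cells (%) in which at least 1, 2 or 3 of the 5 receptor genes were detected, per library, with 95% exact binomial intervals. In CD4 T cells OE-Vector 1 is the lowest library at each step, and in CD8 T cells its share with 3 or more receptors (27.7%) lies among those of the OE-MLKL libraries.

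Within CD8 T cells of 2000 to 6000 UMIs, Ctla4, Lag3 and Havcr2 were each detected in a larger share of the cells with a Pdcd1 UMI than of those without one in 3 of the 4 libraries. Tigit did not follow, with 6.19% against 2.17% in OE-Vector 1 and 4.03% against 12.9%, 6.02% against 6.25% and 9.09% against 2.26% in OE-MLKL 1, 2 and 3. In CD4 and Foxp3 T cells, with at most 44 Pdcd1 cells per library, the direction varied between libraries. In OE-Vector 1 a Lag3 UMI was present in 47.4% of the 97 cells with Pdcd1 and in 19.1% of the 230 cells without it, and for Havcr2 the shares were 30.9% and 7.39%. In OE-MLKL 3 the Havcr2 shares were 46.2% of 132 cells and 10.2% of 177 cells, and in OE-MLKL 2 they were 22.9% of 83 cells and 10.0% of 80 cells. OE-MLKL 1 stood apart, with Havcr2 in 30.9% of the 149 cells with Pdcd1 and in 32.3% of the 62 cells without it, and Lag3 in 27.5% and 33.9%. Cells with Pdcd1 were also deeper, with median depths of 3831.5 to 4132 UMIs against 2828.5 to 3254. The part of depth in these shares was not tested.

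Cd274 (ENSMUSG00000016496, chr19:29367455-29388095, plus strand), which encodes PD-L1, had its highest means in neutrophils and dendritic cells. Neutrophils had 311 CPM in OE-Vector 1 and 47.3, 64.5 and 207 CPM in OE-MLKL 1, 2 and 3, with 314 to 3523 UMIs behind each value. Dendritic cells had 129, 63.8, 85.2 and 134 CPM and macrophages 102, 37.8, 39.5 and 87.8 CPM. OE-Vector 1 and OE-MLKL 3 were high and OE-MLKL 1 and 2 low in all 3 gates. Neutrophils exceeded dendritic cells in OE-Vector 1 and OE-MLKL 3, and dendritic cells exceeded neutrophils in OE-MLKL 1 and 2. Thinned to 500 UMIs, 12.2%, 2.58%, 3.08% and 9.37% of neutrophils held a Cd274 UMI, and at 1000 UMIs the largest share passed to dendritic cells. Neutrophils exceeded macrophages by 1.0 ± 0.22 on the log2 scale (edgeR adjusted p = 0.0042) and dendritic cells exceeded macrophages by 0.74 ± 0.16 (edgeR adjusted p = 0.00079), and both calls were lost without the library block. Cancer cells had 23.6, 5.21, 7.68 and 33.0 CPM, a log2 difference of -2.43 ± 0.21 from macrophages (edgeR adjusted p = 5.6e-05).

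Pdcd1lg2 (ENSMUSG00000016498, chr19:29410919-29471161, plus strand), the PD-L2 gene, begins 22823 bases downstream of the end of Cd274 and had another pattern. Its highest mean was in CD4 T cells, with 61.0 CPM in OE-Vector 1 and 45.4, 52.0 and 36.3 CPM in OE-MLKL 1, 2 and 3, followed by Foxp3 T cells (24.9 to 44.8 CPM) and dendritic cells (58.4, 6.71, 39.1 and 28.8 CPM), whose ranges overlapped. Macrophages had 24.0, 1.42, 3.63 and 3.65 CPM. Dendritic cells exceeded macrophages by 2.39 ± 0.34 on the log2 scale (edgeR adjusted p = 2.5e-06), a call lost without the library block (edgeR adjusted p = 0.062). In cancer cells it was between 0.0992 and 1.05 CPM, under the macrophages of the same library in each case. A930007I19Rik overlaps Pdcd1lg2 on the other strand, and whether counting used strand was not stated. In macrophages A930007I19Rik had 25.5, 30.3, 15.8 and 13.4 CPM, and the part of its reads in the Pdcd1lg2 counts was not tested.

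Cd80 (ENSMUSG00000075122, chr16:38455561-38496335, plus strand) and Cd86 (ENSMUSG00000022901, chr16:36603869-36666081, minus strand), the ligands shared by CD28 and CTLA-4, fell into different myeloid cells. Cd80 in neutrophils was 137 CPM in OE-Vector 1 and 44.0, 38.5 and 122 CPM in OE-MLKL 1, 2 and 3, and in macrophages 14.2, 8.31, 6.84 and 18.7 CPM. Cd86 in neutrophils was 9.10, 5.27, 11.4 and 11.7 CPM, and in macrophages 83.0, 70.0, 81.7 and 137 CPM. The ranges of neutrophils and macrophages did not overlap for either gene. From macrophages to neutrophils Cd80 rose by 2.75 ± 0.18 on the log2 scale (edgeR adjusted p = 8.5e-06) while the log2 difference of Cd86 was -3.29 ± 0.18 (edgeR adjusted p = 3.1e-06). Dendritic cells carried both, with 20.1 to 63.9 CPM of Cd80 and 77.2 to 202 CPM of Cd86, and exceeded macrophages for Cd80 by 1.97 ± 0.27 (edgeR adjusted p = 1.5e-06) and for Cd86 by 0.68 ± 0.15 (edgeR adjusted p = 0.00079), the latter not without the library block (edgeR adjusted p = 0.063).

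Cd274 and Cd80 shared their leading gate, and so were examined in single neutrophils of 1000 to 2000 UMIs. In OE-Vector 1, Cd80 was detected in 17.6% of 1015 cells with a Cd274 UMI (95% exact binomial interval 15.3 to 20.1) and in 17.6% of the cells without one (interval 16.3 to 18.9). In OE-MLKL 3 the shares were 17.5% of 946 cells and 17.8%. In OE-MLKL 2 they were 6.25% of 176 cells (interval 3.16 to 10.9) and 5.79%, and in OE-MLKL 1 2 of 68 cells (2.94%, interval 0.358 to 10.2) and 6.81%. The intervals of cells with and without Cd274 overlapped in each of the 4 libraries, and a difference was not detectable at this depth. Over whole libraries, by contrast, both genes were higher in OE-Vector 1 and OE-MLKL 3 than in OE-MLKL 1 and 2.

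Pvr (ENSMUSG00000040511, chr7:19903578-19921160, minus strand), the ligand of TIGIT, was the one member called higher in cancer cells than in macrophages. Cancer cells had 32.0 CPM in OE-Vector 1 and 39.0, 39.3 and 68.7 CPM in OE-MLKL 1, 2 and 3, dendritic cells 39.7, 40.3, 49.7 and 57.6 CPM, and macrophages 21.8, 30.0, 28.6 and 48.5 CPM. Cancer cells exceeded macrophages in each library, but by only 0.22 ± 0.07 on the log2 scale (edgeR adjusted p = 0.0325), and the call was lost in 6 of 13 alternatives. Neutrophils were lower than macrophages by a log2 difference of -0.84 ± 0.14 (edgeR adjusted p = 0.00097). Gm16251 overlaps Pvr on the other strand, so that reads of the pair cannot be told apart if strand was not used.

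**Figure D4:**
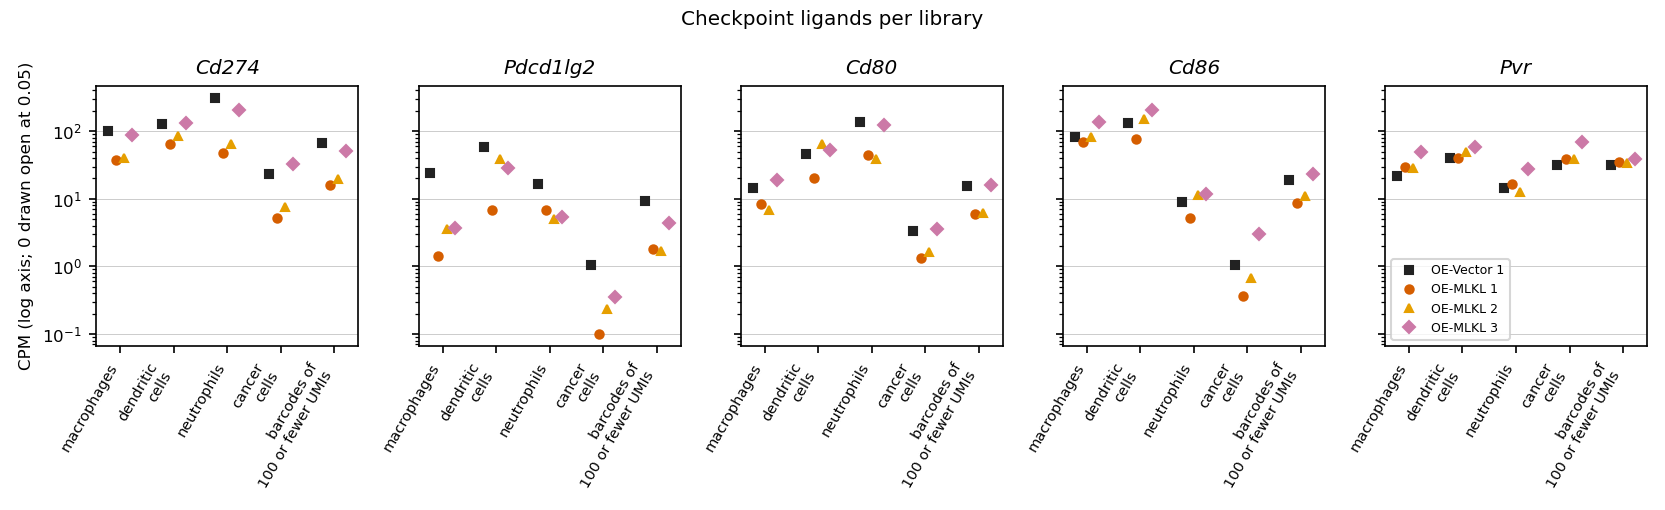
CPM (log axis) of the 5 ligands in macrophages, dendritic cells, neutrophils and cancer cells and in barcodes of 100 or fewer UMIs, with 1 point per library. Cd80 is high in neutrophils and Cd86 in macrophages and dendritic cells, and for Cd274 OE-Vector 1 and OE-MLKL 3 lie above OE-MLKL 1 and 2 in every column, the near-empty barcodes included (67.9 and 50.7 CPM against 15.7 and 19.5 CPM).

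Between dendritic cells and macrophages 8 of 9 tested members were called, each higher in dendritic cells, against 37.8% of all genes tested. The median log2 difference of the members was 1.27 and that of all genes -0.06. Between neutrophils and macrophages 5 of 9 were called against 65.7% of all genes, a share near the background. Between cancer cells and macrophages 8 of 9 were called, 7 of them lower in cancer cells, against 70.6%. Scaling by library size alone moved the calls over all genes from 5247 higher and 5148 lower to 6986 higher and 3950 lower in that last comparison. Among the called members were Ctla4 and Pdcd1 in dendritic cells, Ctla4 in neutrophils and Ctla4 and Lag3 in cancer cells, all at 14.9 CPM or less.

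For such low values the level in RNA outside cells was taken as a reference. In barcodes of 100 or fewer UMIs, which are mostly empty droplets, Ctla4 was at 14.2, 3.84, 5.65 and 15.2 CPM in OE-Vector 1 and OE-MLKL 1, 2 and 3. Neutrophils, macrophages and cancer cells had less Ctla4 than these barcodes in every library. These values were not taken as expression by those cells, though an origin outside them was not tested. Dendritic cells exceeded the barcodes in 1 of 4 libraries for Ctla4 and in 1 of 4 for Pdcd1, with 0 UMIs of either gene in OE-MLKL 1 and 2. Their calls against macrophages rest on OE-Vector 1 and OE-MLKL 3 and were not taken as expression either. Cd274 was at 67.9, 15.7, 19.5 and 50.7 CPM in the same barcodes. Cancer cells lay below that level in each library, and neutrophils, dendritic cells and macrophages above it in each. CD4 T cells, with 54.2, 11.3, 24.9 and 90.8 CPM, were below it in 2 libraries and above it in 2. CD8 T cells exceeded the barcodes in 1 of 4 libraries for Cd274 and in 1 of 4 for Cd80. For Cd274 the call between T cell gates therefore compares values near that level. For Cd80 this holds for the CD8 side, while Foxp3 T cells exceeded the barcodes in 4 of 4 libraries. For Pvr the barcodes had 31.2, 35.5, 34.0 and 39.4 CPM, with cancer and dendritic cells above and neutrophils below in each library, and macrophages above in 1 of 4. Pdcd1lg2 in the barcodes was 9.15, 1.80, 1.68 and 4.46 CPM, and macrophages of OE-Vector 1 and OE-MLKL 2 stood above their own barcodes, while those of OE-MLKL 1 and 3 lay below theirs. Cd80 in macrophages, at 14.2, 8.31, 6.84 and 18.7 CPM, was near the barcodes and exceeded them in 3 of 4 libraries. Havcr2 in cancer cells lay below the barcodes in each library, and Cd86 in neutrophils exceeded them in 1 of 4. The sizes of these log2 differences from macrophages are therefore taken against low values.

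The libraries labelled OE-MLKL (3) and OE-Vector (1) were then compared gate by gate, with edgeR on summed counts. In none of the 7 gates was a member called at an adjusted p of 0.05. The background was low too, with 0% of all genes tested called in CD8 T cells, 0.984% in CD4 T cells, 0.54% in Foxp3 T cells, 0.0207% in macrophages, 0.0819% in dendritic cells, 0% in neutrophils and 0% in cancer cells. At an unadjusted p of 0.05, 2 of 8 tested members passed in CD4 T cells, 3 of 9 in neutrophils, and 1 each of 9 in macrophages, 6 in dendritic cells and 10 in cancer cells, and none of 10 in CD8 and of 5 in Foxp3 T cells. DESeq2 called 1 member in macrophages and none in the 6 other gates. Of all genes, an unadjusted p under 0.05 was given to 435 of 11100 in CD8, 453 of 7112 in CD4 and 259 of 3887 in Foxp3 T cells, 844 of 14481 in macrophages, 360 of 7327 in dendritic cells, 1369 of 14083 in neutrophils and 764 of 17100 in cancer cells. In the 3 gates where edgeR called no gene, DESeq2 called 8 in CD8 T cells, 154 in neutrophils and 93 in cancer cells. In bulk sums of this kind a change in the cells making up a gate and a change in RNA per cell cannot be told apart.

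The largest shift was that of Pdcd1lg2 in macrophages. Its 24.0 CPM in OE-Vector 1 (95% Poisson interval 21.9 to 26.2, 496 UMIs) stood against 1.42, 3.63 and 3.65 CPM in OE-MLKL 1, 2 and 3 (21, 60 and 88 UMIs), and 12% of macrophages held a UMI against 0.667%, 1.84% and 2.30%. Thinned to 500 UMIs per cell the shares were 1.23% against 0.0739%, 0.181% and 0.168%. The groups did not overlap, with a log2 fold change of -3.17 ± 0.45 (edgeR adjusted p = 0.208). Of the OE-MLKL values, those of OE-MLKL 1 and 3 lay below their near-empty barcodes, and OE-Vector 1 had the highest level in these barcodes too. The size of this fold is taken against low values, and the part of RNA outside cells in it was not tested. DESeq2 called it (adjusted p = 2.5e-05) as did edgeR with no filter, without OE-MLKL 1 (edgeR adjusted p = 0.00036) and without OE-MLKL 3 (edgeR adjusted p = 0.00098), 4 of 11 alternatives in all, with log2 fold changes from -3.37 to -2.88. OE-MLKL 3, which resembled OE-Vector 1 in Malat1 and Cd274, had 3.65 CPM of Pdcd1lg2 in macrophages and 4.46 CPM in near-empty barcodes. The part of that resemblance in the shift was not tested. Pdcd1lg2 was also highest in OE-Vector 1 in neutrophils (16.8 CPM against 6.93, 5.08 and 5.34) and in dendritic cells, where the log2 fold change was -1.24 ± 0.52 (edgeR adjusted p = 0.855), and likewise in CD4 T cells. In cancer cells it lay below the near-empty barcodes in each library and was not taken as expression by those cells. In CD8 T cells 28.7 CPM stood against 31.6, 19 and 30.0 CPM, and in Foxp3 T cells OE-Vector 1 was the lowest, with 24.9 CPM against 42.7, 33.1 and 44.8 CPM.

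In neutrophils the log2 fold change was below 0 for 7 of 9 tested members, their median being -1.19 and that over all genes 0.05. The tested members included Ctla4, Lag3 and Pdcd1, at 4.21 CPM or less and below the near-empty barcodes in each library. The share of all genes below 0 was not counted. Scaled by library size alone, the median of all genes was 0.33 in neutrophils, 0.18 in macrophages, 0.16 in CD4 T cells and cancer cells, 0.13 in Foxp3 T cells and 0.12 in dendritic cells. With TMM scaling, used for the fold changes given here, the values were -1.86 ± 0.72 for Cd274 (edgeR adjusted p = 0.504), -1.31 ± 0.60 for Cd80 (edgeR adjusted p = 0.541) and -1.68 ± 0.61 for Havcr2, which was 76.8 CPM in OE-Vector 1 and 11.6, 29.4 and 47.2 CPM in OE-MLKL 1, 2 and 3 (edgeR adjusted p = 0.490). The calls depended on OE-MLKL 3. Without it 4 members were called in neutrophils, namely Cd274 with -2.72 (edgeR adjusted p = 9.6e-06), Cd80 with -1.98, Havcr2 with -2.13 and Pdcd1lg2, and 1928 of all genes were called, against 0 with it. The same was seen for Cd274 in macrophages, where -1.04 ± 0.45 (edgeR adjusted p = 0.833) became -1.5 (edgeR adjusted p = 0.0048), and in cancer cells, where -0.86 ± 0.84 (edgeR adjusted p = 0.991) became -1.90 (edgeR adjusted p = 0.0376). Ptprc, the general leucocyte marker, was at 968 CPM in neutrophils of OE-Vector 1 and at 337, 515 and 1063 CPM in OE-MLKL 1, 2 and 3, so that OE-MLKL 1 and 2 were low for it too. Neutrophils of these libraries were also shallower, with median depths of 1221, 752, 786.5 and 1428 UMIs in the same order, and had larger shares of ribosomal protein UMIs, at 7.61%, 13.8%, 10.9% and 7.44%. The part of these measures in the results was not tested. Cd274 in near-empty barcodes followed the same libraries, and the cancer cells lay below these barcodes for Cd274 in each library.

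No receptor passed the test in T cells. Pdcd1 lay above OE-Vector 1 in each OE-MLKL library in all 3 T cell gates, whereas Lag3 in CD8 T cells lay below it in each, and Havcr2 in Foxp3 T cells lay above it in 1 of 3 libraries. The share of all genes with OE-Vector 1 outside the OE-MLKL range was not counted. Pdcd1 in CD4 T cells was 122 CPM in OE-Vector 1 (95% Poisson interval 102 to 145) and 443, 274 and 327 CPM in OE-MLKL 1, 2 and 3, higher in 3 of 3 libraries, with a log2 fold change of 1.39 ± 0.53 (edgeR adjusted p = 0.344). It was called in 1 of 11 alternatives, that without OE-MLKL 3 (edgeR adjusted p = 0.0033). For CD8 T cells the log2 fold change of Pdcd1 was 0.54 ± 0.46 (edgeR adjusted p = 1.0) and for Foxp3 T cells 0.88 ± 0.53 (edgeR adjusted p = 0.846). Ctla4 in Foxp3 T cells was higher in each OE-MLKL library, by 1.06 ± 0.55 (edgeR adjusted p = 0.746). Havcr2 in CD4 T cells, at 48.4 CPM against 108, 79.2 and 139 CPM, gave 1.03 ± 0.51 (edgeR adjusted p = 0.744).

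Lag3 went opposite ways in the 2 conventional T cell gates. All OE-MLKL libraries lay above OE-Vector 1 in CD4 T cells, with 0.89 ± 0.50 (edgeR adjusted p = 0.879), and all lay below it in CD8 T cells, with -0.31 ± 0.35 (edgeR adjusted p = 1.0). Tested directly, as the term for gate and group in a joint fit, the log2 change of Lag3 was lower in CD8 than in CD4 T cells by a difference of -1.23 ± 0.33, which did not pass (edgeR adjusted p = 0.0828), with 0.833% of all genes passing. Over 8 such pairs of gates no member passed.

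**Figure D5:**
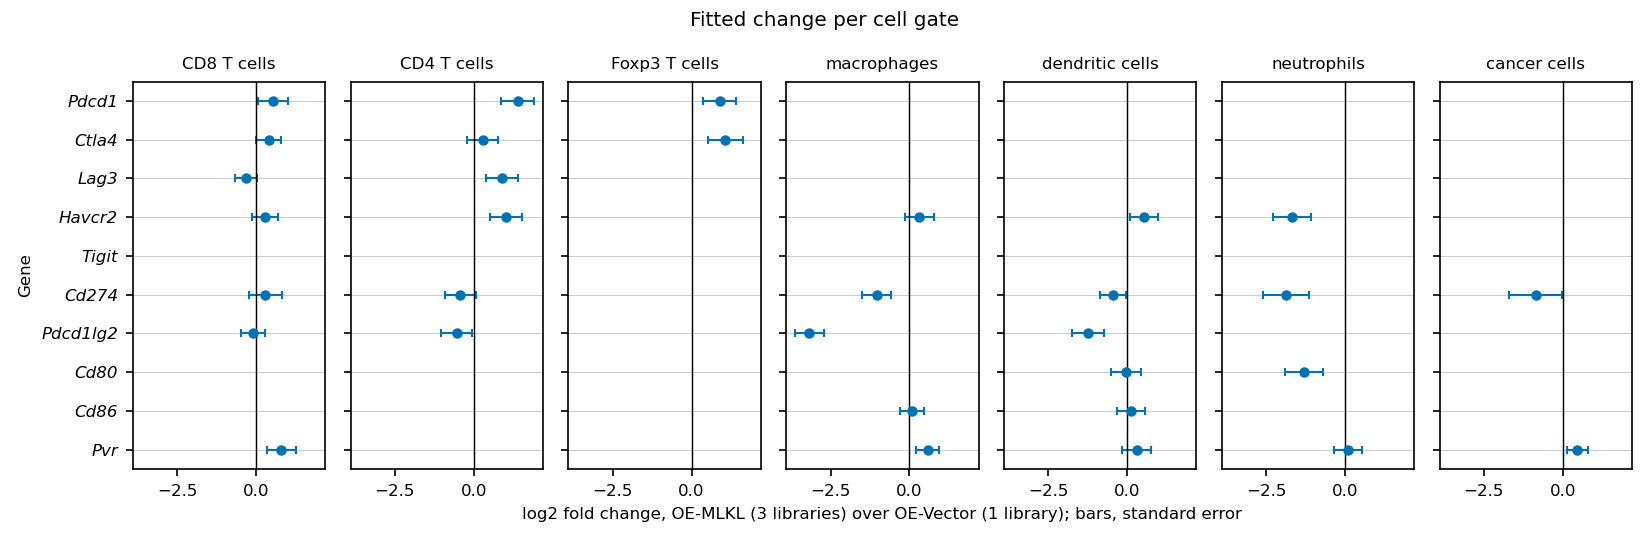
Fitted log2 fold change of OE-MLKL (3 libraries) over OE-Vector (1 library) for each member with at least 20 CPM in some library and 50 UMIs in all, by cell gate, with bars of 1 standard error. Pdcd1lg2 in macrophages lies farthest from 0 (-3.17), 3 of the 4 neutrophil values lie to the left of 0 (Pvr, at 0.09, does not) and the CD4 T cell receptors to the right, and no point passed an adjusted p of 0.05.

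Beside the members, 30 further genes of the system were followed, namely 11 receptors, 12 ligands and 7 signalling genes. In no gate was one of them called between OE-MLKL and OE-Vector, by edgeR or by DESeq2, with 1 to 4 passing an unadjusted p of 0.05 per gate in edgeR. Between cell types the counts called are given beside the share of all genes called. Of 16 tested, 2 were higher and 4 lower in Foxp3 than in CD4 T cells (5.81% of all genes), among them Cd226, the costimulatory receptor that competes with TIGIT for Pvr, with a log2 difference of -2.53 (edgeR adjusted p = 5.2e-05), and Icos, a costimulatory receptor of the CD28 family, with 0.73. Of 20 tested, 4 were higher and 5 lower in CD8 than in CD4 T cells (7.48%), led by the receptor genes Cd244a (3.3), Cd160 (1.77), Icos (-1.60) and Cd28 (-1.02). Against Foxp3 T cells, CD8 T cells had 7 higher and 4 lower of 19 (8.47%), led by Icos (-2.34) and Cd160 (6.78). Dendritic cells had 9 higher and 3 lower of 21 against macrophages (37.8%), led by Btla (8.23) and Cd200 (6.55). Neutrophils had 13 higher and 4 lower of 25 against macrophages, a share near the 65.7% of all genes, with Jak2 (1.87) and Irf1 (1.44), a kinase and a transcription factor of the interferon response, among the higher. Cancer cells had 4 higher and 19 lower of 27 against macrophages (70.6%), with Vsir (-5.36), an inhibitory receptor of myeloid and T cells, and Ptpn6 (-4.70), the SHP-1 phosphatase of haematopoietic cells, among the lower.

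Finally, the genes whose pattern over the 28 combinations of gate and library was most like each member were listed by Pearson's r of log2(CPM + 1) among 15518 genes that were no gate markers. These points share libraries, depth and cells, and r is given as a description. Ctla4 was most like Icos (r = 0.990), Myb (0.975) and Tnfrsf4 (0.972). Pdcd1 was most like Tox (0.980), Sh2d2a (0.979) and Gm19585 (0.976), and Lag3 most like Cd247 (0.978), Tox (0.976) and Zap70 (0.975). Havcr2 followed Itga4 (0.966), Parvg (0.953) and Prex1 (0.948), and Tigit followed 4833403J16Rik (0.971), Gimap5 (0.966) and C2cd4b (0.964). The ligands had looser company. Cd274 was most like Trim30d (0.896), Gm34084 (0.874) and Klhl18 (0.870), and Pdcd1lg2 most like Stat4 (0.928), Traf1 (0.902) and H2-Q7 (0.901). Cd80 was most like Pim1 (0.883), Riok3 (0.867) and Chst15 (0.858), and Cd86 most like Gm6377 (0.916), Pld4 (0.908) and Ifi30 (0.901). Pvr had the lowest r, with Dpy19l1 (0.825), Tlnrd1 (0.781) and Eps15l1 (0.774). Between members, Pdcd1 and Lag3 had the highest r (0.963) and, among ligands, Cd274 and Cd80 (0.826).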

How the data were processed

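Dissociated tumours were run on the 10x 3′ single-cell platform. The authors deposited UMI counts for every gene and barcode, neither filtered nor normalized. Per the labels they were made with Cell Ranger 2.1.1 on mm10, while the file headers name version 7.1.0 and the methods of the study yet another. Whether introns or strand were used in counting was not stated. Of 32285 gene identifiers 32158 were found in GENCODE vM21 (GRCm38), used for positions.

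A cell was gated to the lineage with most detected markers, at least 3 and at least 2 more than any other lineage, macrophages also needing a C1q UMI. T cells were split by Cd8a or Cd8b1, Cd4 and Foxp3. These minimums were set with the markers in view. Between 7.46% and 16.1% of cells per library were mixed and left out, and no doublet caller was run. Of cancer cells, 21.1% to 45.7% per library lay at a threshold, and of dendritic cells 34.7% to 42.9%.

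UMIs were summed per gate and library and compared by edgeR 4.0.16 (quasi-likelihood F-test, TMM factors, filterByExpr; R 4.3.3, limma 3.58.1). Adjusted p-values are Benjamini-Hochberg values over all genes tested. Comparisons between gates had the library as a block. OE-MLKL against OE-Vector left 2 residual degrees of freedom, all from OE-MLKL, and OE-Vector 1 was taken to vary as those libraries do. Replicates are tumours by label only, and p-values measure the spread between these libraries. Alternatives were a stricter gate, deeper cells, removal of the deepest 5% of cells, DESeq2 1.42.0, library size alone, RLE factors, no filter or a mean of at least 20 UMIs, and leaving out each library. CPM is UMIs per 1000000 UMIs of the gate. Thinned shares are the expected shares at 500 (or 1000) UMIs. Poisson and exact binomial 95% intervals cover counting error only. The tests were tried on simulated data. Python 3.11.15, numpy 2.4.6, scipy 1.17.1 and pandas were used.

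Members and gene lists were chosen with earlier results of these data known. Members were named in each gate. Fold changes are given for those with at least 20 CPM in 1 library and, for OE-MLKL against OE-Vector only, 50 UMIs. At most 4 further genes per comparison were named, those with the smallest adjusted p. The test between gates and the counts of receptors per cell were added after seeing the data. The 2 OE-Vector samples without a matrix here were not analysed here.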

Additional observations from a re-analysis of the deposited data

Results flagged for a closer look

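Of the checkpoint genes with at least 20 CPM in some library and 50 UMIs in all in both gates, 2 went opposite ways in a pair of cell gates, with every OE-MLKL library on one side of OE-Vector 1 in one gate and on the other side in the other. Since a single OE-Vector library enters both changes, its own level sets each direction. The share of all genes that go opposite ways in this manner was not counted, so these cases are not shown to be unusual. Lag3 was higher in OE-MLKL in CD4 T cells and lower in CD8 T cells, and the log2 changes were 1.21 apart. The joint fit of both gates gave a difference of -1.23 ± 0.33 for CD8 over CD4 T cells (edgeR adjusted p = 0.0828), which did not pass.

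Havcr2 was higher in OE-MLKL in CD4 T cells and lower in neutrophils, with log2 changes 2.70 apart, a difference that was not tested. It was also higher in OE-MLKL in dendritic cells and lower in neutrophils, with log2 changes 2.22 apart, and this difference was not tested either.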

How the results depend on the processing

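No paired analysis was possible because OE-Vector 1 and OE-MLKL 1 alone share a replicate number among the libraries analysed. Of 351 alternative values for 32 checkpoint gene changes between OE-MLKL and OE-Vector, 331 kept direction and side of the threshold, 10 became calls and 10 changed sign. Between cell gates 474 of 524 values for 41 differences were kept, 34 calls were lost, 3 were gained and 13 changed sign. The causes were not tested.

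Counts of checkpoint genes called between OE-MLKL and OE-Vector, 0 in each gate, were 1 in macrophages with DESeq2 and with no filter. Leaving out 1 OE-MLKL library gave 0 to 1 in CD4 T cells, 0 to 2 in macrophages, 0 to 4 in neutrophils and 0 to 1 in cancer cells, the highest each time without OE-MLKL 3. Calls between gates without the library block are given beside those over all genes tested. Between Foxp3 and CD4 T cells 1 of 6 tested members was called (87 of 4249 genes). Between CD8 and CD4 T cells it was 1 of 10 (111 of 9125 genes), also 1 with DESeq2. Between CD8 and Foxp3 T cells it was 2 of 9 (342 of 8372 genes). Against macrophages, of 9 members, 4 were called in dendritic cells (3236 of 12076 genes), 3 in neutrophils (5871 of 13617) and 5 in cancer cells (7458 of 14725). Leaving out 1 library gave 1 (without OE-Vector 1, with 798 of 8599 genes) to 3 between CD8 and CD4 T cells. Between CD8 and Foxp3 T cells it gave 2 to 3. The 2 came without OE-MLKL 1, 2 or 3, with 564 of 8487, 623 of 9040 and 412 of 8300 genes called. Between dendritic cells and macrophages it gave 5 (without OE-Vector 1, with 3649 of 12256 genes) to 8. Between cancer cells and macrophages it gave 5 (without OE-MLKL 2, with 9216 of 14855 genes) to 8.

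Log2 changes that turned sign when 1 OE-MLKL library was left out ran from -0.28 to 0.62 for Cd274 and from -0.28 to 0.073 for Pdcd1lg2 in CD8 T cells, from -0.23 to 0.24 for Cd86 and from -0.11 to 0.53 for Havcr2 in macrophages, from -0.29 to 0.21 for Cd80 and from -0.19 to 0.36 for Cd86 in dendritic cells, and from -0.24 to 0.29 for Pvr in neutrophils. Cd80 in dendritic cells was 0.055 with 1 marker more per gate and 0.021 by library size alone, and Pvr in neutrophils -0.024 without the deepest 5% of cells. Between CD8 and CD4 T cells Pdcd1 was -0.0051 without the deepest cells and -0.034 by library size alone, and leaving out 1 library gave -0.20 (without OE-Vector 1) to 0.21. Leaving out 1 library likewise gave -0.40 (without OE-Vector 1) to 0.29 for Lag3, -0.029 (without OE-Vector 1) to 0.32 for Havcr2 and -0.84 to 0.28 (without OE-MLKL 3) for Tigit. Lag3 was -0.028 with 1 marker more, -0.0023 in cells of at least 1000 UMIs, -0.024 with DESeq2, -0.062 by library size alone, -0.014 with a mean of at least 20 UMIs and -0.067 without the block.

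Over all genes, calls between OE-MLKL and OE-Vector ranged over the alternatives from 0 to 617 in CD8 T cells, 5 to 211 in CD4 T cells, 0 to 27 in Foxp3 T cells, 0 to 536 in macrophages, 1 to 132 in dendritic cells, 0 to 1928 in neutrophils and 0 to 285 in cancer cells, the highest without OE-MLKL 3. By library size alone, calls in CD4 T cells were 25 higher and 25 lower against 26 and 44, in Foxp3 T cells 6 and 10 against 5 and 16, in dendritic cells 11 and 6 against 1 and 5, and between CD8 and Foxp3 T cells 256 and 460 against 330 and 379. Between CD8 and CD4 T cells 683 genes were called, 370 with DESeq2, 262 without OE-MLKL 3 and 111 without the block. Between Foxp3 and CD4 T cells 247 were called, 137 with DESeq2, 389 with no filter and 87 without the block. Depth limits Tigit everywhere and, in Foxp3 T cells, the members other than Ctla4 and Pdcd1.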
